A study of Mus musculus with 24 samples.

Results

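The effect of the Gars C201R allele on ribosome-associated mRNA was compared between spinal cord pulldowns that held tagged cholinergic ribosomes and pulldowns that held none. All 24 of the 24 libraries entered, 6 in each of 4 groups by source name, and the quantity was the genotype by Cre interaction: the C201R change with Cre minus the C201R change without Cre. The mice were 8 weeks old, on the background B6.CgxB6.129, and each library came from the spinal cord of 1 numbered mouse. All 24 mice carried 1 copy of the RiboTag allele, written Rpl+/-, in which the ribosomal protein Rpl22 gains an HA tag after Cre recombination. The C201R mice with Cre were labelled Rpl+/-;Chat+/-;C201R+/- and the wild-type (WT) mice with Cre Rpl+/-;Chat+/-;C201R+/+, Cre being expressed from the Chat locus. Their negative controls lacked Cre and were labelled Rpl+/-;Chat+/+;C201R+/- and Rpl+/-;Chat+/+;C201R+/+. The design text writes the mutant genotype as GarsC201R/+, so it was heterozygous. Whole spinal cord was used, so with Cre the tag can mark every cell that expresses Chat, other cholinergic neurons as well as motor neurons. Without Cre the RNA recovered was taken as background, such as RNA that sticks to antibody and beads, and its source was not tested.

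Gars encodes glycyl-tRNA synthetase, which charges glycine onto its tRNA, and dominant mutations in it cause an inherited neuropathy of peripheral axons. Cells that sense uncharged tRNA or stalled ribosomes phosphorylate the initiation factor eIF2, and translation of the transcription factor ATF4 then rises. ATF4 pairs with C/EBP proteins at composite promoter elements and turns on genes for amino acid synthesis, amino acid import and tRNA charging. A pulldown of tagged ribosomes also carries untagged RNA from glia and other cells, so a no-Cre pulldown of the same genotype shows which genotype changes are already present in that carried-over RNA.

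The C/EBP-ATF response element, written TGATGNAAN and sought on both strands, was located in the RefSeq promoters of the GRCm38.p6 build (250 bases before to 50 after each start site). It is shown for genes whose C201R change differed between pulldowns (Nupr1, Hnrnpa2b1) and for genes called higher in C201R with Cre but not for the interaction (Fgf21, Pck2). Each line is printed 5′ to 3′ on the strand of the gene, with the element in capitals; where the capitals read as the reverse complement, the element lies on the other strand.
Nupr1, chr7:126625563-126625591, minus strand: aaagggccagATTGCATCAgacagggctt
Hnrnpa2b1, chr6:51470005-51470033, minus strand: gttgcgcaagTGATGTAAAgcagtcccgc
Fgf21, chr7:45615612-45615640, minus strand: agacccccccATTGCATCAtccgtccagg
Pck2, chr14:55540152-55540180, plus strand: agccttcaaaGTTACATCAgtatcttaca
The element began 111 bases before the start site in Nupr1, 129 in Hnrnpa2b1, 140 in Fgf21 and 104 in Pck2. Among the genes called higher for the interaction, 3 of the 14 with a promoter in the table held it (21.4%), the third being Arhgef2, where it began 26 bases after the start. None of the 4 genes called lower with a promoter held it. The share was 30.3% among ATF4 targets (10 of 33) and 2.9% among all tested genes matched by symbol (318 of 11038). A gene counted if any of its windows matched, so genes with more windows had more chances. There were 24 windows for the 14 genes called higher, 42 for the 33 ATF4 targets and 14134 for the 11038 genes. It was 4.5% of all genes with a promoter there (1215 of 27025) and 4.0% of all promoter windows of this length. Among genes called with Cre but not for the interaction, it was 11.8% (2 of 17) where the no-Cre change had the same sign at an unadjusted p under 0.05. It was 8.8% (9 of 102) in the rest. Pex5l, Rars and Gm8355 were not in the table. A match describes the letters only.

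Library totals ran from 8898800 to 28294900 counts. Transcripts of the mitochondrial genome made up 35.2 to 55.5% of the counts without Cre and 1.24 to 17.1% with Cre, and the noncoding RNA Gm26924 made up 1.6 to 7.60% and 7.45 to 43.3%. The Gm26924 share with Cre averaged 25.4% ± 14.5 (SD, n = 6) in C201R and 13.2% ± 8.78 (n = 6) in WT. Its genotype difference was 11.5 percentage points larger with Cre than without, and an exact two-sided permutation test gave p = 0.128 (0.555 after Benjamini-Hochberg adjustment over 9 tests). The same exact permutation test within library series gave p = 0.0545 (adjusted 0.245). WT mouse 14701-9 and C201R mouse 14003-1, both with Cre, stood apart with mitochondrial shares of 17.1% and 15.8% and Gm26924 shares of 30.8% and 43.3%, so the counts below are also given without them. The part of these shares in the results was not tested beyond the refits given in the closing section.

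Levels below are counts per 1000000 counts of the TMM-scaled library (CPM), given as the lowest, the median and the highest of the 6 mice of a group. They are shares of a library, so the amount of RNA in a no-Cre pulldown is not known from them. In these bulk pulldowns, fewer cells of a type and less RNA per cell cannot be told apart. Changes are log2 differences from 1 edgeR quasi-likelihood fit to all 24 libraries, with the standard error (SE) or 95% interval, and adjusted p is Benjamini-Hochberg over 16109 genes tested.

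Chat, which makes acetylcholine, was at 51.1, 59.1 and 62.0 CPM in WT with Cre and at 50.0, 67.6 and 116 CPM in C201R with Cre. Without Cre it was at 1.6, 4.25 and 8.91 CPM in WT and at 0.871, 1.96 and 3.33 CPM in C201R. The groups with Cre lay above those without in both genotypes, with no overlap. The no-Cre level of Chat was 7.64% of the Cre level in WT (95% interval 4.82 to 12.1%) and 2.76% in C201R (1.64 to 4.65%), and the interaction of 1.47 (SE 0.45) had adjusted p = 0.261. Oligodendrocyte markers went the other way: 12 of 12 were called lower with Cre, and their summed level was 5144 to 9183 CPM without Cre against 531 to 1162 CPM with Cre over both genotypes. Over all genes, with the Cre difference averaged over both genotypes, 5374 (33.4%) were called higher with Cre and 6027 (37.4%) lower.

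Gars itself was at 80.3, 92.6 and 106 CPM in WT with Cre and at 144, 152 and 205 CPM in C201R with Cre, without overlap. In the no-Cre pulldowns it was at 16.8, 24.9 and 47.9 CPM in WT and at 17.5, 23.6 and 34.5 CPM in C201R, where the groups overlapped. The interaction for Gars was 1.10 (SE 0.31, adjusted p = 0.196), and the change with Cre was 0.84 (adjusted p = 0.0505), so neither passed. C201R is a point change, so this level checks nothing about the genotype labels. Rpl22, the tagged protein's gene, had an interaction of 0.06 with a 95% interval of -0.53 to 0.64 (adjusted p = 0.971).

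The interaction was called at adjusted p under 0.05 for 21 genes (0.13% of those tested), 16 higher (0.0993%) and 5 lower (0.031%), and 1462 genes (9.08%) had an unadjusted p under 0.05. The genes with the smallest p encode the last enzymes of serine synthesis, the oxidoreductase Cyb5r1, the chloride channel protein Clic4 and the stress regulator Nupr1. With Cre alone, 178 genes differed between genotypes (1.1%), 95 higher (0.59%) and 83 lower (0.515%), and without Cre 2 did (0.0124%). Of the 21 genes, 18 were also called with Cre, and in 20 the change with Cre was larger in size than the change without. For 17 of them the 95% interval of the change without Cre covered 0, and in 12 the signs with and without Cre were opposite. Of all genes tested, 5.19% had an unadjusted p under 0.05 without Cre, and the signs matched in 49.7%. Choosing genes by the difference between the changes favours opposite signs, so these counts describe the called genes and test nothing. Without mice 14003-1 and 14701-9 the counts were 43 for the interaction and 277 with Cre, and without 14701-9 alone 34 and 301. With the mouse number prefix as a block 6 genes were called, Psph, Cyb5r1, Clic4, Psat1, Nupr1 and Arhgef2, and with Gm26924 abundance added as a covariate these and Pex5l and Atf4, 8 in all. Leaving out 1 library at a time gave 11 to 37 interaction calls, with the fewest without mouse 14703-4, 14702-3 or 14004-3, all with Cre, and the most without the WT mouse 14701-1 without Cre. With Cre it gave 89 to 301 calls. With unscaled library totals 1 gene (Nupr1) was called for the interaction and 35 with Cre.

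**Figure D1:**
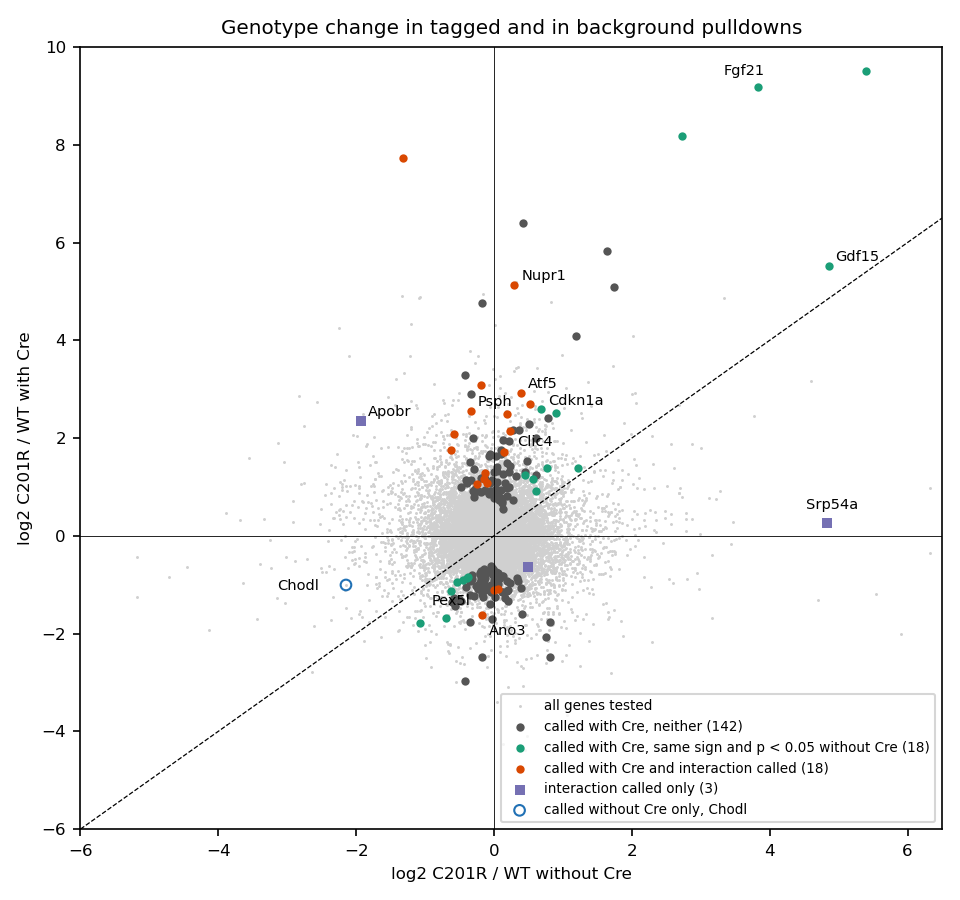
Each point is 1 of the genes tested, with the log2 change C201R over WT without Cre on the x axis and with Cre on the y axis; the dashed line marks equal changes, and 7 genes lie outside the axes. Orange points (18) are called for the interaction and with Cre, and their no-Cre intervals cover 0 except in Cyb5r1; green points (18) were called with Cre, had the same sign and an unadjusted p under 0.05 without Cre, and were not called for the interaction; the unlabelled green point at the upper right is Adm2, whose fitted values rest on WT groups with no counts.

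The 3 enzymes that make serine from a glycolytic intermediate were all among the 21. Psph (ENSMUSG00000029446), the phosphatase of the last step, was at 36.0, 39.7 and 54.6 CPM in C201R with Cre and at 3.71, 7.17 and 8.82 CPM in WT with Cre. In pulldowns without Cre it was at 3.48, 5.01 and 8.29 CPM in C201R and at 4.77, 7.41 and 8.81 CPM in WT. C201R with Cre stood above every other library, while the remaining 3 groups overlapped one another. The interaction for Psph was 2.90 (SE 0.35, adjusted p = 4.81e-05), made of 2.56 with Cre and -0.34 without (95% interval -0.83 to 0.16). In WT, Psph was as high in the background as in the tagged pulldown, its no-Cre level being 102% of its Cre level (95% interval 72.7 to 143%), against 13.7% in C201R (9.45 to 19.8%).

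Psat1 (ENSMUSG00000024640), the aminotransferase before that step, was at 141, 156 and 210 CPM in C201R with Cre and at 27.3, 29.4 and 34.8 CPM in WT with Cre. In the background it was at 26.8, 51.5 and 97.8 CPM in C201R and at 28.8, 44.2 and 84.0 CPM in WT. Every C201R library with Cre was above every other library, and the no-Cre groups overlapped. The interaction was 2.31 (SE 0.31, adjusted p = 0.000119). Psat1 was called lower with Cre than without in WT (-0.66) and higher with Cre in C201R (1.65).

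Phgdh (ENSMUSG00000053398), the first enzyme of the pathway, was at 8.76, 15.0 and 26.8 CPM in C201R with Cre and at 0.723, 1.07 and 6.19 CPM in WT with Cre. Without Cre it was at 2.46, 5.37 and 9.32 CPM in C201R and at 2.19, 5.65 and 9.01 CPM in WT, so the background of both genotypes was level. The groups with Cre did not overlap, and the WT high of 6.19 CPM was mouse 14701-9. The interaction was 3.26 (SE 0.61, adjusted p = 0.0124), with a change of 3.08 with Cre and -0.19 without. Phgdh is made mainly by astrocytes in this tissue. The summed astrocyte markers were at 636 to 809 CPM in C201R with Cre and at 727 to 1118 CPM in WT with Cre. Their interaction median was -0.44, with 0 of 12 called. With Cre these sums held S100b at 318 to 484 CPM in C201R and at 357 to 513 CPM in WT. S100b was the 1 astrocyte marker called higher with Cre, and 11 were called lower. The part of astrocyte RNA in the Phgdh result was not tested.

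The transcription factors Atf4 and Atf5 were also called higher. Atf4 (ENSMUSG00000042406) was at 103, 191 and 240 CPM in C201R with Cre and at 35.8, 46.3 and 80.8 CPM in WT with Cre. In the no-Cre pulldowns it was at 25.4, 28.6 and 36.0 CPM in C201R and at 18.1, 28.7 and 31.2 CPM in WT. The Cre groups did not overlap and the no-Cre groups did. The interaction for Atf4 was 1.57 (SE 0.28, adjusted p = 0.00711), with 1.71 with Cre and 0.14 without (95% interval -0.26 to 0.54). In WT, Atf4 was called higher with Cre than without (0.82), whereas Psat1 and Phgdh were called lower.

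Atf5 (ENSMUSG00000038539), a related factor of the mitochondrial stress response, was at 4.98, 17.2 and 21.9 CPM in C201R with Cre and at 1.36, 2.27 and 2.62 CPM in WT with Cre, without overlap. In pulldowns without Cre it was at 3.43, 5.73 and 6.43 CPM in C201R and at 2.67, 4.06 and 5.78 CPM in WT. The lowest C201R library with Cre lay within the no-Cre range, and the other 5 lay above it. The interaction for Atf5 was 2.54 (SE 0.47, adjusted p = 0.0124).

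Nupr1 (ENSMUSG00000030717), a small stress-induced chromatin regulator, was at 19.1, 33.6 and 39.6 CPM in C201R with Cre and at 0.432, 0.63 and 1.71 CPM in WT with Cre. In the background it was at 1.45, 2.74 and 4.25 CPM in C201R and at 0.177, 1.48 and 7.55 CPM in WT. C201R with Cre was above all other libraries. The interaction was 4.84 (SE 0.74, adjusted p = 0.00158), and the change without Cre was 0.30 (95% interval -0.75 to 1.35). Nupr1 was the 1 named gene still called with unscaled library totals.

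Rars (ENSMUSG00000018848), arginyl-tRNA synthetase, was the 1 tRNA synthetase called. It was at 56.8, 72.6 and 86.4 CPM in C201R with Cre and at 31.9, 34.9 and 38.0 CPM in WT with Cre, against 10.6, 12.2 and 14 CPM and 10.6, 14.3 and 20.5 CPM without. Both Cre groups lay above both no-Cre groups, and C201R with Cre above WT with Cre. The interaction for Rars was 1.30 (SE 0.24, adjusted p = 0.0124), and without the C201R mouse 14703-4 with Cre its adjusted p was above 0.05. The call was also lost in library series 2 alone.

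The splicing regulators Hnrnpa2b1 (ENSMUSG00000004980) and Hnrnph1 (ENSMUSG00000007850) were called higher. Hnrnpa2b1 was at 432, 628 and 826 CPM in C201R with Cre and at 198, 235 and 353 CPM in WT with Cre, and its no-Cre groups spanned 237 to 403 CPM in C201R and 194 to 463 CPM in WT. There was no overlap between the Cre groups, and every WT library with Cre lay inside the range of WT without Cre. Its interaction was 1.42 (SE 0.27, adjusted p = 0.0186). Hnrnph1 was at 263, 312 and 425 CPM in C201R with Cre, against 133, 149 and 152 CPM in WT with Cre, 70.2, 129 and 176 CPM in C201R without and 90.9, 143 and 168 CPM in WT without. C201R with Cre was above every other library. Its interaction was 1.31 (SE 0.26, adjusted p = 0.0309), and leaving out any 1 of 14 libraries ended that call (any 1 of 8 for Hnrnpa2b1). Both calls were also lost in library series 2 alone.

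**Figure D2:**
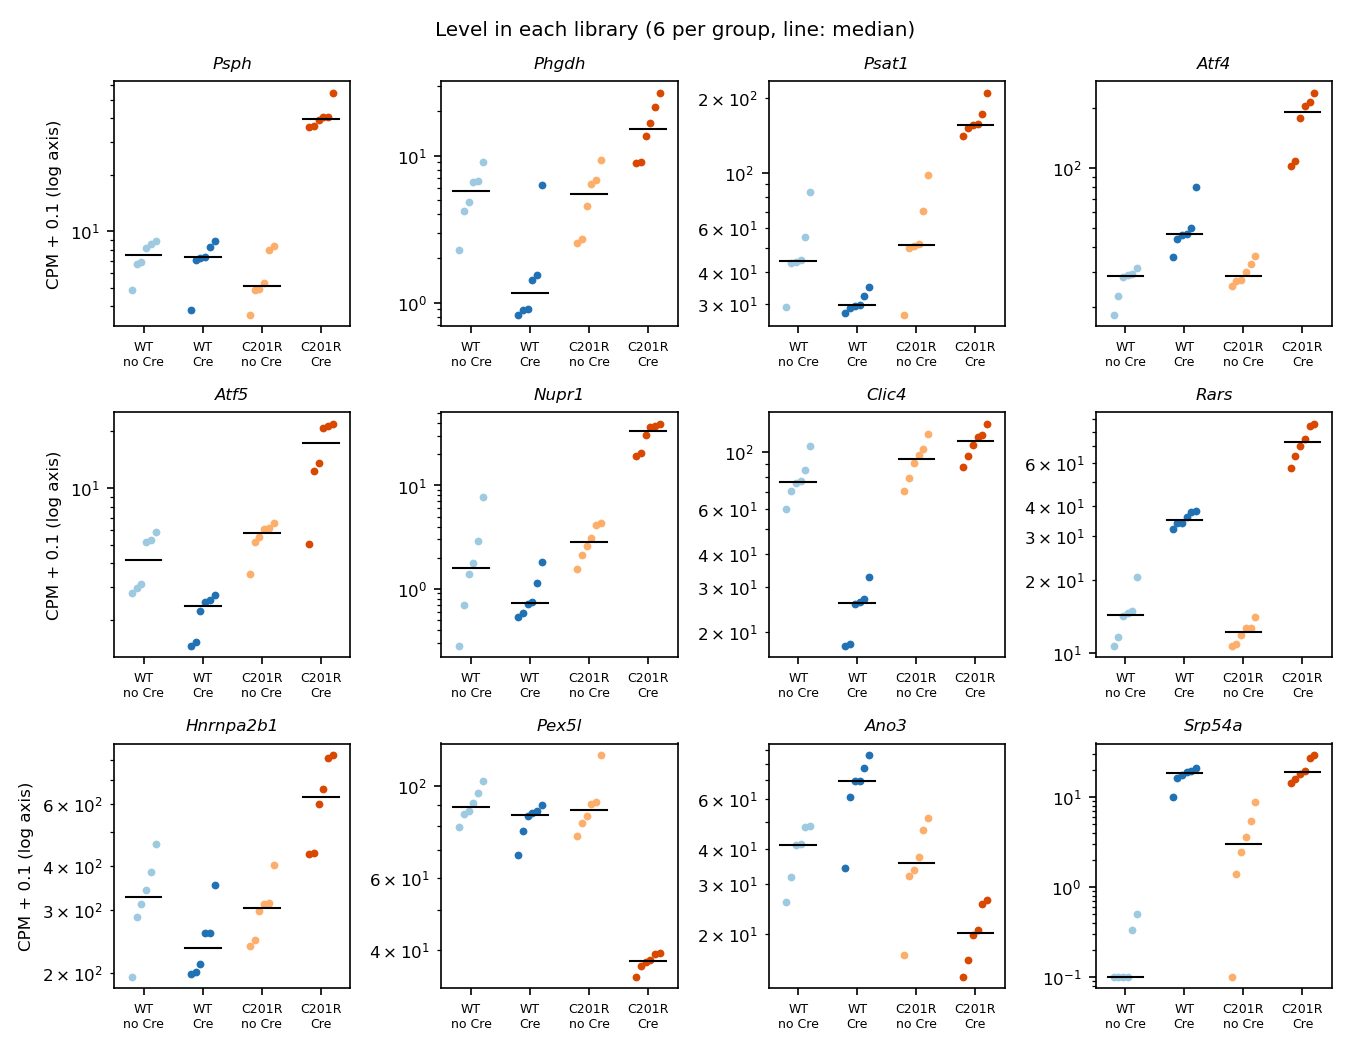
The level of 12 genes in each of the 24 libraries, as CPM plus 0.1 on a log axis, with 6 points and a median line per group. In Psph, Psat1, Nupr1 and Rars every C201R library with Cre is above every other library, in Pex5l every one is below, and in Srp54a both pairs of groups overlap, the no-Cre pair in libraries at 0.

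In other called genes the background stood above the tagged WT pulldown. Clic4 (ENSMUSG00000037242), a chloride intracellular channel protein, was at 87.5, 110 and 129 CPM in C201R with Cre and at 17.5, 25.9 and 32.7 CPM in WT with Cre. Without Cre it was at 70.6, 93.8 and 118 CPM in C201R and at 60.1, 76.4 and 105 CPM in WT. The WT Cre group was thus below the other 3, which overlapped one another. The interaction for Clic4 was 1.92 (SE 0.25, adjusted p = 9.61e-05). Its level was called lower with Cre in WT (-1.71, adjusted p = 9.78e-09) but not in C201R (0.20, adjusted p = 0.336).

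Arhgef2 (ENSMUSG00000028059), an exchange factor for RhoA bound to microtubules, was at 12.8, 15.8 and 20.8 CPM in C201R with Cre and at 1.96, 3.36 and 8.09 CPM in WT with Cre. Its background was higher, at 18.5, 26.4 and 35.4 CPM in C201R and at 18.5, 35.3 and 85.2 CPM in WT. With Cre the genotypes did not overlap, and the WT high of 8.09 CPM was mouse 14701-9. The interaction was 2.66 (SE 0.44, adjusted p = 0.00449), and Arhgef2 was called lower with Cre in both genotypes (-3.52 in WT and -0.86 in C201R).

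Ddr2 (ENSMUSG00000026674), a collagen receptor, was at 10.9, 15.4 and 18.3 CPM in C201R with Cre and at 1.52, 2.21 and 2.90 CPM in WT with Cre. In the no-Cre pulldowns it was at 7.78, 14 and 32.0 CPM in C201R and at 6.83, 9.39 and 19.2 CPM in WT. The Cre groups did not overlap, while C201R with Cre lay inside the background range. The interaction for Ddr2 was 2.17 (SE 0.45, adjusted p = 0.0383). The summed fibroblast, meningeal and Schwann cell markers were at 196 to 309 CPM in C201R with Cre and at 345 to 499 CPM in WT with Cre, sums of which Pmp22 made up the largest part. With Cre 3 of the 9 markers had positive changes and 0 were called, and their part in the Ddr2 result was not tested.

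Cyb5r1 (ENSMUSG00000026456), an NADH-cytochrome b5 reductase, was called higher with Cre in both genotypes, by 1.39 in WT and 3.76 in C201R on the log2 scale. It was at 37.5, 45.9 and 62.1 CPM in C201R with Cre, against 12.8, 14.3 and 15.2 CPM in WT with Cre. In pulldowns without Cre it was at 2.57, 3.83 and 4.27 CPM in C201R and at 3.24, 5.86 and 6.99 CPM in WT. There was no overlap between the Cre groups, whereas the no-Cre groups overlapped, with C201R the lower (-0.62, unadjusted p = 0.00703). The interaction for Cyb5r1, 2.37 (SE 0.29, adjusted p = 5.3e-05), therefore exceeded the change with Cre of 1.75.

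Phf10 (ENSMUSG00000023883), a subunit of a chromatin remodelling complex, was at 57.0, 80.3 and 98.7 CPM in C201R with Cre and between 21.9 and 52.2 CPM in all libraries of the other 3 groups. C201R with Cre was above every other library. The interaction was 1.18 (SE 0.25, adjusted p = 0.0414). Apobr (ENSMUSG00000042759), a lipoprotein receptor of macrophages, had low levels: 2.45, 6.03 and 15.4 CPM in C201R with Cre, 0.342, 0.64 and 6.00 CPM in WT with Cre, 0.251, 0.853 and 2.25 CPM in C201R without and 0.405, 2.61 and 7.93 CPM in WT without. Its groups overlapped in both arms, and opposite changes of 2.34 with Cre and -1.93 without, neither passing, made up the interaction of 4.27 (SE 0.91, adjusted p = 0.0475). The summed microglia markers were at 20.4 to 37.2 CPM in C201R with Cre and at 13.5 to 33.6 CPM in WT with Cre, and their part in this result was not tested.

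The 5 genes called lower were Pex5l, Dclk1, Ano3, Zhx3 and Srp54a. Pex5l (ENSMUSG00000027674), which regulates HCN pacemaker channels, was at 34.3, 37.5 and 39.3 CPM in C201R with Cre and at 68.2, 85.3 and 89.9 CPM in WT with Cre. In the background it was at 75.9, 87.7 and 119 CPM in C201R and at 79.7, 89.0 and 103 CPM in WT. C201R with Cre was below every other library, and the remaining groups overlapped. The interaction was -1.11 (SE 0.19, adjusted p = 0.00587), and the change without Cre was 0.00 (95% interval -0.27 to 0.27).

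Dclk1 (ENSMUSG00000027797), a microtubule-associated kinase, was at 158, 241 and 270 CPM in C201R with Cre and at 280, 535 and 599 CPM in WT with Cre, against 110, 148 and 173 CPM and 94.3, 139 and 172 CPM without. With Cre the genotypes did not overlap and the background of the genotypes did. The interaction for Dclk1 was -1.14 (SE 0.24, adjusted p = 0.0383). Ano3 (ENSMUSG00000074968), a membrane protein of the anoctamin family, was at 14, 20.2 and 26.2 CPM in C201R with Cre and at 34.3, 69.5 and 86.3 CPM in WT with Cre, against 16.7, 35.5 and 51.5 CPM and 25.8, 41.3 and 48.1 CPM without. Its interaction was -1.44 (SE 0.31, adjusted p = 0.0475), and it was called higher with Cre in WT (0.78) and lower with Cre in C201R (-0.66).

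Zhx3 (ENSMUSG00000035877), a zinc finger homeobox repressor, was at 21.7, 26.3 and 33.3 CPM in C201R with Cre and at 31.0, 43.6 and 49.9 CPM in WT with Cre. Without Cre it was at 71.5, 81.8 and 119 CPM in C201R and at 50.6, 62.4 and 74.5 CPM in WT. The groups overlapped in both arms and stood in opposite order. The interaction of -1.12 (SE 0.24, adjusted p = 0.0414) came from -0.63 with Cre (adjusted p = 0.058) and 0.49 without (unadjusted p = 0.00653). Leaving out any 1 of 18 to 21 libraries ended the calls of Dclk1, Srp54a, Zhx3, Phf10, Apobr and Ano3, and any 1 of 13 that of Ddr2.

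Srp54a and Gm8355 have near-identical copies, so their values are uncertain. Srp54a (ENSMUSG00000073079), a subunit of the signal recognition particle, was the 1 called gene with a larger change without Cre: 4.83 (SE 0.74, adjusted p = 0.0114) against 0.26 with Cre, and an interaction of -4.57 (adjusted p = 0.0383). It was at 0, 0 and 0.405 CPM in WT without Cre and at 0, 2.91 and 8.81 CPM in C201R without Cre, which are 9 and 250 counts in all, a ratio of 30.4 (95% counting interval 15.7 to 67.2). With Cre it was at 10.0, 18.2 and 20.9 CPM in WT and 14.2, 18.7 and 29.5 CPM in C201R, which overlapped. The call without Cre was lost without WT mouse 14004-4 or 14702-1. Its transcript is 99.6% identical to Srp54b over 3644 of 4498 bases and 99.5% to Srp54c over 3640. Summed over the 3 copies the no-Cre groups overlapped, at 21.5 to 61.9 CPM in C201R and 27.1 to 62.0 CPM in WT.

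Gm8355 (ENSMUSG00000093798), a processed pseudogene 98.7% identical to the chaperone gene Hspa8 over its 1941 bases, was at 42.5, 323 and 842 CPM in C201R with Cre and at 4.70 CPM or less in the other 18 libraries. Its interaction was 9.06 (SE 1.70, adjusted p = 0.0383). Leaving out any 1 of 12 libraries ended the call of Gm8355, as did limma-voom, no filter on low counts, unscaled totals, the block, the Gm26924 covariate and library series 2 alone. Hspa8 itself was at 3290, 4237 and 7912 CPM in C201R with Cre and at 2619, 2752 and 3243 CPM in WT with Cre, without overlap, and at 425 to 934 and 419 to 745 CPM without. Its interaction was 0.68 (adjusted p = 0.491).

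**Figure D3:**
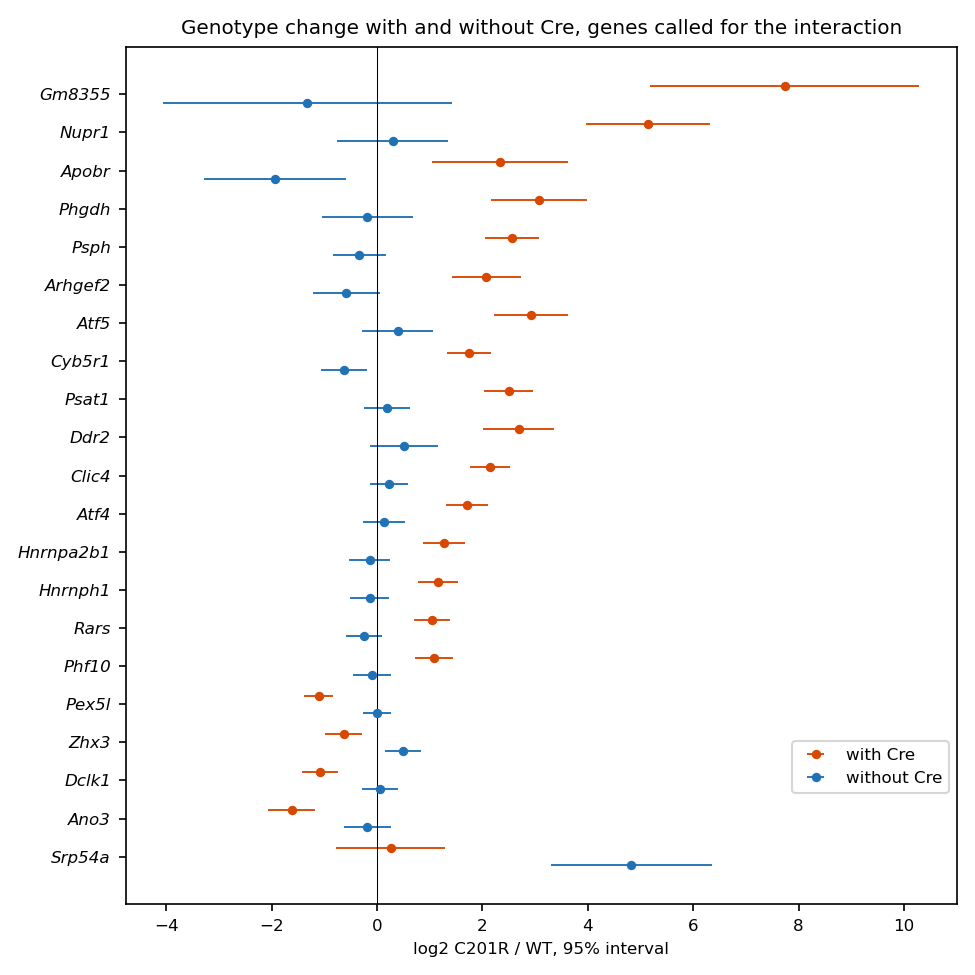
The log2 change C201R over WT with its 95% interval for the 21 genes called for the interaction, with Cre (orange) and without (blue). The blue intervals of 17 genes cover 0; those of Cyb5r1, Srp54a, Zhx3 and Apobr do not.

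Some genes changed the direction of their Cre difference between genotypes. Called lower with Cre in WT and higher with Cre in C201R were 12 genes (0.0745%), among them Hnrnpa2b1, Psat1, Phgdh, Nupr1, Atf5 and Apobr of the called genes, and 2 genes, Ano3 and 2310058D17Rik, did the reverse (0.0124%). Calls in the same direction were far more common, with 3741 genes higher with Cre in both genotypes and 3840 lower in both. Slc3a2, the shared heavy chain of several amino acid transporters, was among the 12: it was at 55.5, 73.4 and 127 CPM in C201R with Cre, at 21.4, 25.4 and 45.1 CPM in WT with Cre, at 29.5, 43.9 and 59.6 CPM in C201R without and at 29.5, 36.1 and 67.3 CPM in WT without. Its interaction of 1.36 (SE 0.30) missed the threshold with adjusted p = 0.0691.

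Of the 178 genes called with Cre, 18 were called for the interaction, 18 others had the same sign without Cre at an unadjusted p under 0.05, and 142 had neither. The 18 others are 10.1% of the 178, and 2.81% of all genes tested met the same condition without Cre (5.19% with either sign or call). None of these 18 was called without Cre. The no-Cre sign matched in 117 of the 178 (65.7%), against 49.7% of all genes tested. The median size of the 178 changes with Cre was 1.14, and the median change without Cre, signed by the direction with Cre, was 0.10. For 158 the no-Cre interval covered 0, and for 172 it did not reach the value with Cre. The 178 genes were chosen by their change with Cre, so the count of 172 follows largely from that choice and tests nothing. The changes with and without Cre come from different mice, but the interaction is built from both and shares all libraries with them. The RLE scaling gave 139 higher and 76 lower calls with Cre in place of 95 and 83, and unscaled totals 25 and 10.

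The 18 genes with the same sign and an unadjusted p under 0.05 without Cre included the secreted factors Fgf21, Gdf15 and Adm2. Fgf21, a hormone that acts on metabolism, was at 18.9, 38.7 and 74.2 CPM in C201R with Cre and at 0, 0.0456 and 0.145 CPM in WT with Cre. In the no-Cre pulldowns it was at 0, 0.335 and 1.08 CPM in C201R and at 0, 0 and 0.146 CPM in WT. C201R with Cre was above every other library, and 5 of 6 C201R libraries without Cre held reads against 2 of 6 in WT. In counts, Fgf21 had 4241 in C201R and 10 in WT with Cre, a ratio of shares of 604 (95% counting interval 328 to 1260), and 32 and 2 without Cre, a ratio of 17.5 (4.46 to 151). Its interaction had adjusted p = 0.415 (5.35, SE 2.00).

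Gdf15, a stress hormone sensed in the brainstem, had 293 counts in C201R and 8 in WT with Cre, a ratio of 52.1 (26.1 to 122), and 10 and 0 without Cre, at least 3.64-fold higher against a floor of 3 counts over the group. Adm2, a vasoactive peptide, had 670 and 0 counts with Cre, at least 318-fold higher, and 17 and 0 without Cre, at least 6.19-fold higher; with both WT groups at 0 it gives no interaction. These intervals and floors cover counting error only. Both hormones thus held a few reads in the C201R background and none in the WT background.

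Pck2, the mitochondrial phosphoenolpyruvate carboxykinase, did not overlap between genotypes in either pulldown. It was at 17.9, 21.6 and 25.3 CPM in C201R with Cre and at 7.12, 8.38 and 9.30 CPM in WT with Cre, and at 4.25, 5.54 and 8.59 CPM and 3.17, 3.55 and 4.08 CPM without. The changes were 1.39 with Cre (adjusted p = 0.000431) and 0.77 without (unadjusted p = 0.00188, adjusted 0.657), and the interaction was 0.62 (SE 0.31, adjusted p = 0.569). Over all genes, the groups did not overlap in 434 with Cre (2.69%) and in 29 without (0.18%).

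Others of the 18 stood in the same order with overlap without Cre. Cdkn1a, the cell cycle inhibitor p21, was at 15.0, 29.9 and 43.2 CPM in C201R with Cre and at 1.92, 5.32 and 5.84 CPM in WT with Cre, and at 15.4, 18.2 and 42.7 CPM and 6.12, 14.3 and 19.7 CPM without. Its interaction was 1.90 (SE 0.44, adjusted p = 0.0888), from 2.58 with Cre and 0.69 without. Slc7a1, a cationic amino acid transporter, changed by 1.23 with Cre and had 0.45 without. Zcchc12, a transcriptional coactivator, changed by 1.16 and had 0.57, and Glp1r, the receptor of an incretin hormone, changed by 2.52 and had 0.90.

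Among the lower genes of this kind, Cd24a, a glycoprotein of immature neurons, was at 186, 305 and 362 CPM in C201R with Cre and at 751, 1155 and 1243 CPM in WT with Cre. In pulldowns without Cre it was at 31.4, 44.1 and 88.0 CPM in C201R and at 73.7, 92.4 and 222 CPM in WT. The Cre groups did not overlap, and the no-Cre groups did. The changes for Cd24a were -1.79 with Cre and -1.07 without (unadjusted p = 8.72e-05), with an interaction of -0.72 (SE 0.33, adjusted p = 0.5). Mest, an imprinted hydrolase gene, changed by -1.68 with Cre and had -0.70 without.

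The 142 remaining genes called with Cre were not called for the interaction and had no change of the same sign at an unadjusted p under 0.05 without Cre. Serpinf1, a neurotrophic serpin, was at 28.7, 35.3 and 58.0 CPM in C201R with Cre and at 7.07, 8.69 and 10.0 CPM in WT with Cre, with 4.21 to 15.1 CPM and 2.86 to 10.7 CPM without. The Cre groups stood apart and the backgrounds overlapped. Its interaction was 1.81 (SE 0.41, adjusted p = 0.0696). Rgs11, which speeds the shutoff of G protein signals, was at 0.348 to 0.856 CPM in C201R with Cre and 1.24 to 3.95 CPM in WT with Cre, and its interaction was -2.30 (SE 0.53, adjusted p = 0.0772). Slc7a5 (1.72, adjusted p = 0.126), Tra2a (1.30, adjusted p = 0.101), Eef1a1 (1.06, adjusted p = 0.0888), Wars (0.91, adjusted p = 0.268) and Acot2 (1.89, adjusted p = 0.141) also missed the threshold for the interaction.

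In all, 18 genes had an adjusted interaction p between 0.05 and 0.10, 12 with positive and 6 with negative values. Angptl2, a secreted angiopoietin-like protein, was nearest: it was at 1.28, 3.01 and 5.21 CPM in C201R with Cre and at 6.25, 9.80 and 14.8 CPM in WT with Cre, without overlap, and the order was the opposite without Cre, at 3.60, 10.4 and 18.6 CPM and 1.86, 5.60 and 8.52 CPM. Its interaction was -2.58 (SE 0.56, adjusted p = 0.0524). Wrap73, a centriole protein, was the opposite: it was at 2.17, 3.37 and 4.77 CPM in C201R without Cre and at 4.80, 6.78 and 18.4 CPM in WT without Cre, which did not overlap, while the Cre groups did. Its interaction was 2.10 (SE 0.47, adjusted p = 0.0691). Cox6a2, a respiratory subunit of muscle and some neurons, had 839 counts in C201R and 12 in WT with Cre and 61 and 41 without, and Rps9, a ribosomal protein, had 1.66; both had adjusted p = 0.0696.

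Chodl, a marker of fast motor neurons, was the second gene called without Cre and was lower there in C201R. It was at 2.31, 5.46 and 10.0 CPM in C201R without Cre and at 9.22, 20.4 and 60.9 CPM in WT without Cre. With Cre it was at 163, 198 and 227 CPM in C201R and at 251, 436 and 482 CPM in WT. There was no overlap between the Cre groups, and the no-Cre groups overlapped in a narrow range. The change was -2.15 (SE 0.36, adjusted p = 0.0357) without Cre and -1.01 (SE 0.34, adjusted p = 0.168) with Cre, and the interaction was 1.14 (SE 0.49, adjusted p = 0.47). Leaving out any 1 of 16 libraries ended the call without Cre.

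The cholinergic and motor neuron markers, Chodl among them, had lower values in the C201R background with 1 exception. Of 15 tested, 0 were called for the interaction, 13 had positive values (8535 of all 16109 genes did), and the median was 0.54 against 0.05 for all genes. The median was -0.81 without Cre, where Chodl was called lower, and -0.19 with Cre, where Tns1, an adhesion adaptor, was called lower (-1.03, adjusted p = 0.0132). Their summed level without Cre was 187 to 322 CPM in C201R (median 221) and 251 to 685 CPM in WT (median 300). With Cre it was 1539 to 2451 CPM and 1942 to 3586 CPM, and the genotypes overlapped in both arms. WT mouse 14702-6 held the highest no-Cre levels of Chodl (60.9 CPM), Slc5a7 (87.2 CPM) and Ahnak2 (179 CPM), while Chat was highest in WT mouse 14004-4 (8.91 CPM). The part of mouse 14702-6 in the no-Cre median of the list was not tested. Prph, a motor neuron filament, was at 6.53, 9.62 and 17.1 CPM in C201R and 7.63, 15.5 and 78.9 CPM in WT without Cre, and had -1.30 (unadjusted p = 0.00386) there against 0.19 with Cre. The median no-Cre level of these markers was 8.61% of the Cre level in WT and 4.31% in C201R.

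Genes of the ATF4 target list, which also holds Atf4 itself, made up 6 of the 21 genes called. This and the other lists were chosen with earlier results of these data known, so their shares describe the lists and test nothing. Of 39 tested, 6 were called higher for the interaction and 0 lower, namely Psph, Psat1, Phgdh, Atf4, Atf5 and Nupr1, against 0.0993% higher over all genes, and 38 had positive values, against 8535 of 16109 over all genes. The median interaction was 1.09 (1.09 without the 2 genes with a group at 0), from 1.27 with Cre and 0.21 without. With Cre 16 of the 39 were called higher, against 0.59% of all genes, and without Cre 0 were called and 30 had positive values, against 7257 of 16109 over all genes. Their summed level was 1142 to 1361 CPM in C201R with Cre and 484 to 540 CPM in WT with Cre, and 595 to 721 CPM and 526 to 615 CPM without, where the ranges overlapped slightly. The median no-Cre level of the list was 100.1% of the Cre level in WT and 32.8% in C201R.

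By role, the 9 transcription factors and regulators had a median interaction of 1.09 with 3 called, the 12 amino acid and one-carbon enzymes 0.93 with 3 called, and the 8 amino acid transporters 1.02 with 0 called. Shmt2, which makes glycine from serine in mitochondria, changed by 2.01 with Cre (adjusted p = 0.0012) and had 0.61 without. Pycr1, the last enzyme of proline synthesis, changed by 3.29 with Cre, had -0.42 without, and had an interaction of 3.71 (adjusted p = 0.0992). Chac1, which degrades glutathione, changed by 1.63 with Cre and had -0.07 without. Eif4ebp1, a brake on initiation, was the member with a negative interaction (-0.56, adjusted p = 0.926).

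Cytosolic tRNA synthetases and their complex partners had a median interaction of 0.84 over 24 genes, 22 of them positive (8535 of 16109 over all genes) and 1 called higher (Rars; 0.0993% over all genes). Of these, 7 were called higher with Cre (0.59% over all genes), among them Cars (1.31), Lars (1.14) and Sars (0.88), and 0 without, where the median was -0.09. Mitochondrial synthetases had 0 of 17 called and a median of 0.40. The 42 hnRNP, SR and related RNA-binding proteins had 2 called higher (Hnrnpa2b1, Hnrnph1), 39 positive values and a median of 0.58. The median fell to 0.33 with the Gm26924 covariate and 0.28 with unscaled totals, against -0.02 and -0.21 for all genes. With Cre 9 of the 42 were called higher, against the same 0.59%, including Hnrnpa1 (1.15) and Hnrnph3 (1.26). The median without Cre was -0.07.

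The other stress and translation lists had 0 called for the interaction except for Srp54a among the 10 signal recognition particle genes. Heat shock proteins had a median interaction of 0.62 over 20 genes. With Cre 4 of them were called higher (0.59% over all genes), among them the mitochondrial chaperonin Hspe1 (1.67). Unfolded protein response genes had 0.33 over 21 (-0.03 with unscaled totals) and p53 targets 0.19 over 15. Cytosolic ribosomal proteins had 0.60 over 77 and nuclear respiratory chain subunits 0.48 over 69, with 69 and 58 positive values (8535 of 16109 over all genes). With Cre 4 and 0 of these 2 lists were called higher, against the same 0.59%. With the Gm26924 covariate these medians were 0.18 and -0.02, against -0.02 for all genes, so the respiratory chain value did not stand apart there. With library totals left unscaled, the all-gene median went from 0.05 to -0.21, and these list medians are to be read against that shift.

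Lists of neuronal excitability and of other cell types were near 0 or wide. Voltage-gated channels had a median interaction of -0.22 over 24 genes, alpha motor neuron markers 0.35 over 11, gamma motor neuron markers -0.01 over 10, and neurofilament, tubulin and transport genes 0.10 over 21, with 0 called in each. Oligodendrocyte markers had -0.19 over 12, microglia 0.31 over 12, endothelial and mural markers -0.32 over 10, other spinal neurons 0.30 over 14 and fibroblast, meningeal and Schwann cell markers -0.46 over 9. Blood cell markers had 0.68 over 6, sensory ganglion markers 1.16 over 5, mitochondrial mRNAs 0.47 over 13 and immediate early genes -0.12 over 9. None of these members was called for the interaction. With Cre, Kcna1, a potassium channel, was called lower (-0.83, adjusted p = 0.0284) among the channels and Rbfox3 (-1.14) among the alpha motor neuron markers, and without Cre Chodl. Several medians changed sign with the fit: with the Gm26924 covariate those of blood, mitochondrial, microglia and gamma motor neuron lists were -0.61, -0.32, -0.17 and 0.11. Over all alternatives the sensory ganglion median ran from -1.48 to 3.52, the fibroblast, meningeal and Schwann cell median from -0.66 to 0.42 and the oligodendrocyte median from -0.45 to 0.11.

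**Figure D4:**
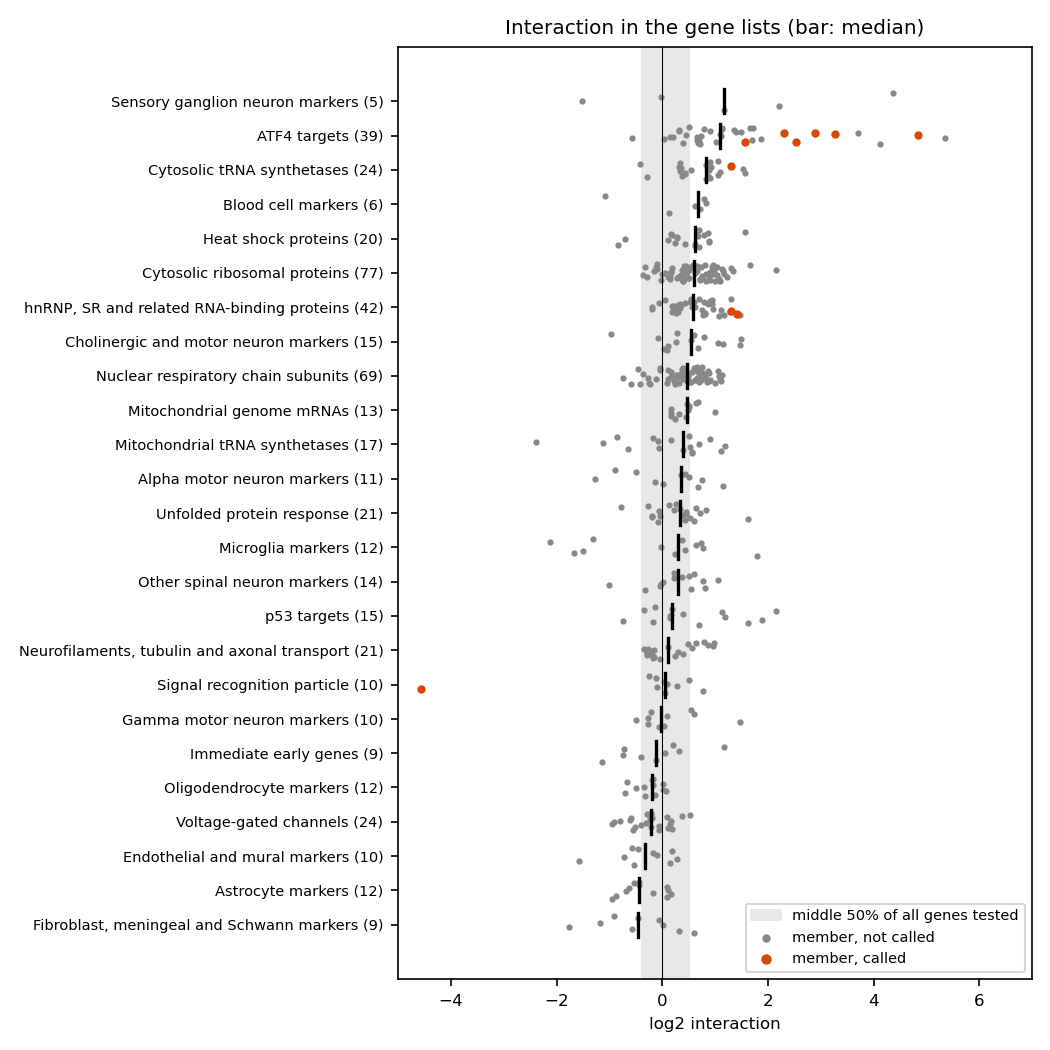
The log2 interaction of each tested member of 25 gene lists (points; orange where called), with the list median as a bar and the number tested in parentheses. The grey band is the middle 50% of all genes, from -0.37 to 0.50; the median of the ATF4 targets (1.09) lies outside it, and that of the oligodendrocyte markers (-0.19) inside.

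The precision of the interaction differed between genes by their Cre difference. The median SE of the interaction was 0.39 for the 5374 genes higher with Cre, 0.64 for the 4708 not called and 0.67 for the 6027 lower with Cre, and 0.52 over all genes against 0.37 for the change with Cre alone. Calls for the interaction fell in all 3 classes, at 10 (0.186%), 6 (0.127%) and 5 genes (0.083%), and calls with Cre at 100, 40 and 38. The classes rest on the Cre difference averaged over both genotypes, so a gene can enter the higher class through C201R alone. Among the 10, Psph (-0.03), Hnrnph1 (0.07), Phf10 (0.04) and Gm8355 (-0.58) were not called for Cre in WT. Psat1 was called lower with Cre in WT (-0.66). Both genes called without Cre, Chodl and Srp54a, were in the class higher with Cre.

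**Figure D5:**
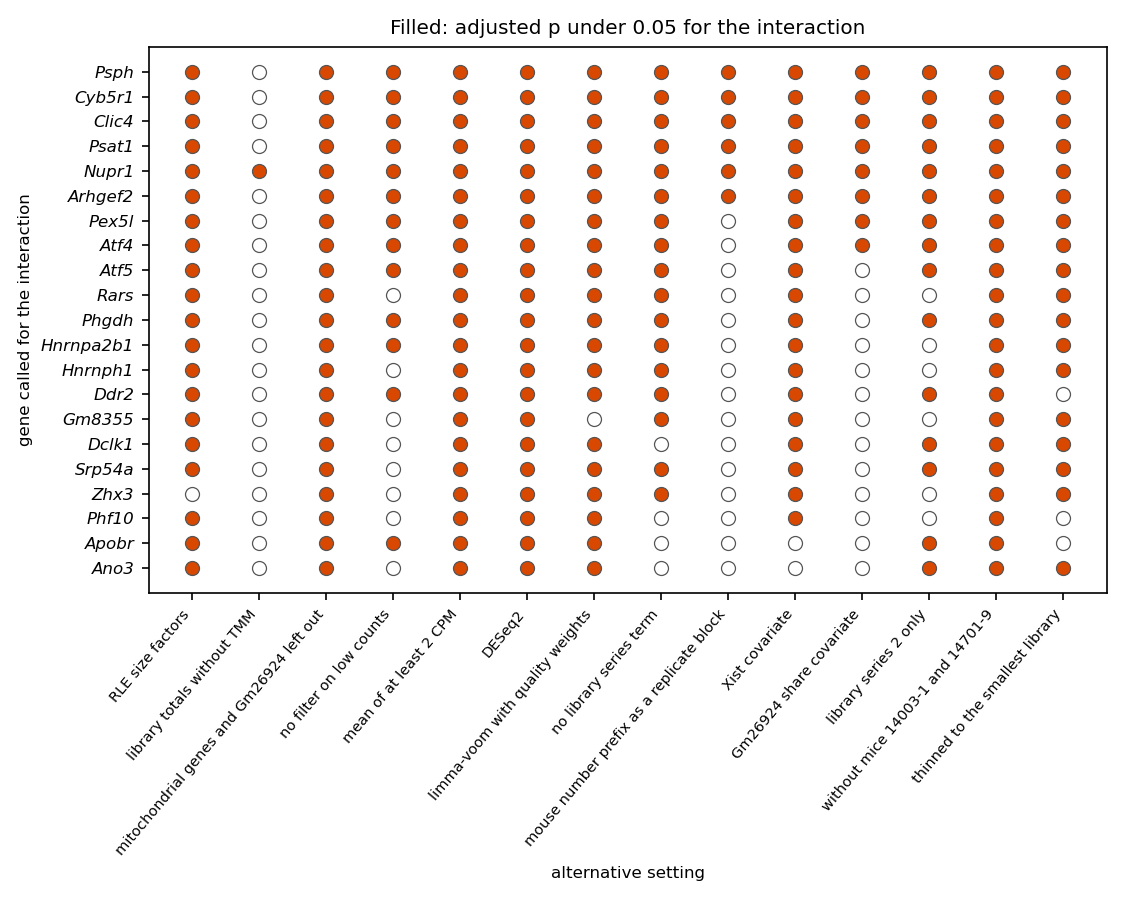
Rows are the 21 genes called for the interaction and columns 14 other ways of processing or fitting; filled circles mark an adjusted p under 0.05. Nupr1 is filled throughout, Psph, Cyb5r1, Clic4, Psat1 and Arhgef2 are open only under unscaled library totals, and Ano3, Apobr and Phf10 are open under several.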

How the data were processed

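RNA bound to HA-tagged ribosomes was sequenced from 24 spinal cord pulldowns, and the deposited tables hold the authors' expected counts per gene, made, per the submitters' processing notes, with Bowtie2 2.2.0 and RSEM 1.2.12. No genome build or annotation is given in the sources used here. Expected counts were rounded to whole numbers. Of 38924 genes, 16109 passed filterByExpr. They were fitted with edgeR 4.0.16 (robust quasi-likelihood, TMM scaling) in R 4.3.3 on 4 groups and a term for library series. The series is whether the description places a library in the first run of library numbers (7 libraries) or the second (17). The labels do not give its meaning. The first series held 3 of 6 C201R and 2 of 6 WT libraries with Cre, and 1 of 6 in each no-Cre group, so it was not balanced. All genotype changes, the interaction and the Cre differences are contrasts of this fit, called at Benjamini-Hochberg adjusted p under 0.05; their standard errors are the size of the change divided by the root of F. p-values measure the spread between these mice. With 6 libraries per group and 8898800 to 28294900 counts each, the median standard error was 0.52 for the interaction. Alternatives used DESeq2 1.42.0 and limma 3.58.1. The script was tested on simulated counts with 100 interactions of 2-fold and 100 of 4-fold put in. Of these, 3% and 37% were called. Of the 44 calls in the simulated counts, 9.1% were wrong. An interaction that was not called was therefore not shown to be absent. Named genes were all interaction calls except predicted genes, small RNAs, pseudogenes and sex-linked RNAs (Gm8355, which falls outside this rule, was named after its values were seen), Gars, Rpl22 and Chat, the 8 smallest p among genes called with Cre that had the same sign at an unadjusted p under 0.05 without Cre and the 8 among the remaining ones, 6 near calls, and called or abundant list members; other list members were named as examples after their values were seen. The members and lists were chosen with earlier results of these data known. Replicate numbers follow accession order and pair nothing. Promoters came from RefSeq (GRCm38.p6) by symbol.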

Additional observations from a re-analysis of the deposited data

Results flagged for a closer look

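For the 21 genes of the report, the interaction between genotype and Cre was called in the edgeR fit at adjusted p under 0.05. The values of Srp54a and Gm8355 are uncertain because of near-identical copies, and several calls were lost when 1 library was left out. Among serine enzymes the log2 interaction was 2.90 (Psph), 2.31 (Psat1) and 3.26 (Phgdh). Among stress regulators it was 4.84 (Nupr1), 2.54 (Atf5) and 1.57 (Atf4), and for Rars 1.30. The splicing regulators had 1.42 (Hnrnpa2b1) and 1.31 (Hnrnph1). Other higher genes had 2.37 (Cyb5r1), 2.66 (Arhgef2), 1.92 (Clic4), 2.17 (Ddr2), 1.18 (Phf10), 4.27 (Apobr) and, for the pseudogene Gm8355, 9.06. The lower genes had -1.44 (Ano3), -1.11 (Pex5l), -1.14 (Dclk1), -1.12 (Zhx3) and -4.57 (Srp54a).

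A library stood far from the other 5 of its group by Dixon's criterion in 23 of 140 groups tested. Chance gives about 1 in 20 for independent groups with a normal spread. The groups here share libraries, and some hold mostly 0 (Gm8355 in 4 of 6 C201R libraries without Cre). The count therefore does not measure an excess over chance. Of the 23, 10 were WT mouse 14701-9 with Cre. Its levels were 3.71 CPM for Psph, 8.09 for Arhgef2, 80.8 for Atf4, 6.19 for Phgdh, 6.00 for Apobr, 751 for Cd24a, 106 for Mest and 2.57 for Glp1r, and its mitochondrial and Gm26924 shares were 17.1% and 30.8%. The C201R mouse 14003-1 with Cre stood apart with a total of 12110600 counts and a mitochondrial share of 15.8%, and the C201R mouse 14003-4 with Cre with 54.6 CPM for Psph.

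Among WT mice without Cre, 14702-6 stood apart with 7.55 CPM for Nupr1 and 222 CPM for Cd24a, 14004-4 with 25.7 CPM for Slc7a1 and 14702-5 with a total of 9143700 counts. Among C201R mice without Cre, 14003-3 stood apart with 119 CPM for Pex5l, 14003-2 with 4.66 CPM for Gm8355 and a Gm26924 share of 7.60%, 14702-9 with 42.7 CPM for Cdkn1a, 14702-8 with 6.43 CPM for Glp1r and 14004-8 with a mitochondrial share of 35.2%.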

How the results depend on the processing

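Every one of the 21 genes called for the interaction kept its sign in each alternative that tested it. The number called was 1 with unscaled library totals, 115 with DESeq2, 42 with limma-voom, 8 when Gm26924 share was a covariate, 6 under a replicate block of mouse number prefixes, 43 without mice 14003-1 and 14701-9, and 11 to 37 with 1 library left out. The cause of these shifts was not tested. Testing only the genes higher with Cre in the mean of both genotypes gave 14, and library series 2 alone 27. Those 27 included 15 of the 21 genes, but not Rars, Hnrnpa2b1, Hnrnph1, Zhx3, Phf10 or Gm8355. Calls with Cre numbered 35 with unscaled totals, 118 with no filter on low counts, 554 with DESeq2, 478 with limma-voom, 58 with the block, 50 with the Gm26924 covariate, 104 in library series 2, 277 without both mice, 601 in a fit of the 12 libraries with Cre, and 89 to 301 with 1 library left out. Calls without Cre numbered 20 with DESeq2, 1 with RLE factors, no filter, limma-voom, the Xist or the Gm26924 covariate, 0 in edgeR with the block or in a fit of the 12 libraries without Cre (509 and 455 genes at an unadjusted p under 0.05, and 836 in the fit of all libraries), and 0 to 4 with 1 library left out.

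Leaving out 1 library moved the interaction count by over 1.5 times for 10 mice: 14703-4, 14702-3 and 14004-3 (11 each), 14003-3, 14004-6 and 14004-4 (12 each), 14702-8 and 14002-6 (13 each), 14701-9 (34) and 14701-1 (37). It moved the count with Cre for 8 mice: 14002-6 (89), 14702-3 (96), 14703-4 (99), 14004-3 (101), 14004-6 (104), 14703-5 (114), 14003-4 (117) and 14701-9 (301).

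Interaction calls among genes higher with Cre, 10 in the report, were 1 with unscaled totals, 5 with no filter, 50 with DESeq2, 20 with limma-voom, 3 with the block, 3 with the Gm26924 covariate, 16 without both mice, and 4 to 19 with 1 library left out. Interaction calls with the larger change without Cre, 1 in the report, were 0 with unscaled totals, no filter, the block or the Gm26924 covariate, 2 with a mean of at least 2 CPM or thinned libraries, 19 with DESeq2, 3 with limma-voom or without both mice, and 0 to 6 with 1 library left out. The share of genes called with Cre that had the same sign without it, 65.7%, was 80% with unscaled totals, 75.9% with the block and 50 to 74.2% with 1 library left out.

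The block stands on the mouse number prefix, whose meaning the labels do not give; within the Cre arm prefix 14003 held C201R mice only, and 14002 and 14702 WT mice only, so block and genotype are partly the same there. Depth limits low genes: the median standard error of the interaction was 0.52, and levels near 1 CPM rest on few counts.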

Other observations

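Rbfox3, Calca and Ptrh2, which fall outside the rule for named genes, were examined after their values were seen. Rbfox3, the neuronal nuclear antigen NeuN, was at 20.9, 53.1 and 104 CPM (lowest, median and highest of 6 mice) in C201R with Cre and at 51.0, 149 and 171 CPM in WT with Cre, and at 21.5 to 41.0 CPM and 23.3 to 39.6 CPM without. The groups overlapped in both pulldowns. Its change with Cre was -1.14 (SE 0.23, edgeR adjusted p = 0.00523) and its interaction -1.27 (SE 0.32, adjusted p = 0.126). Calca, the neuropeptide CGRP, had -1.47 with Cre (adjusted p = 0.176) and -2.14 without (unadjusted p = 0.000704), with an interaction of 0.67 (SE 0.71, adjusted p = 0.823). Ptrh2, a mitochondrial peptidyl-tRNA hydrolase, had nearly equal values in both pulldowns, 1.40 with Cre (adjusted p = 0.0442) and 1.22 without (unadjusted p = 0.0015), and an interaction of 0.18 (SE 0.49, adjusted p = 0.94).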
